A study of Homo sapiens with 4 samples.

Results

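The 9 genes described here encode interleukin-1 (IL-1) family cytokines, their receptors and inflammatory caspases. They are the cytokines IL1A, IL1B and IL33, the receptor antagonist IL1RN, the receptor chains IL1R1, IL1RAP and IL1RL1, and the proteases CASP1 and CASP4. They were chosen by name with earlier results of these data known, as were the gene lists used below. Shares over all genes are therefore given as description only. Each of the 9 genes was found once on a primary chromosome among the 63677 genes of the count tables (57736 on primary chromosomes). The measurements were poly(A) RNA-seq read counts per gene from IMR90, primary human fetal lung fibroblasts. Cells of 2 isolates, I90-10 and I90-79, both at passage 5, received either a non-targeting control siRNA (NTC, called control) or siRNA against HMGB1 (HMGB1 KD) by lipid transfection for 72 h, which gave 4 libraries, 1 for each isolate and siRNA. HMGB1 is an abundant nuclear DNA-binding protein that can also be released from cells as an alarmin. The labels do not say which siRNA sequence a library received, so that effects of a particular siRNA sequence and of HMGB1 loss cannot be told apart.

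IL-1 alpha, IL-1 beta and IL-33 are cytokines made without a classical secretion signal. IL-1 alpha and IL-33 act mainly when they leave damaged or stressed cells, or at the cell surface for IL-1 alpha, while IL-1 beta is first cut by caspase-1 within an inflammasome. IL-1 alpha and beta bind IL1R1, IL-33 binds ST2 (the product of IL1RL1), and both receptors need the shared chain IL1RAP to recruit MYD88 and IRAK kinases. Fibroblasts answer IL-1 with chemokines, matrix metalloproteinases and IL-6, and IL-1 alpha is known as an upstream cytokine of the senescence-associated secretory phenotype.

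Depth ranged from 29861687 to 35317010 counts per library, and 3 counts, the limit that a count of 0 allows, corresponded to between 0.0814 and 0.104 CPM. CPM (a library's counts brought to a common total) was scaled here between libraries with TMM factors. HMGB1 itself had 5322 and 8734 counts in the I90-10 and I90-79 controls and 461 and 589 in the respective HMGB1 KD libraries. It fell by 3.59 on the log2 scale (SE 0.19, adjusted p = 0.00751, edgeR quasi-likelihood test). The 10 fibroblast markers summed to 45839 and 23996 CPM in the I90-10 and I90-79 controls and to 39337 and 25086 CPM after HMGB1 KD. These sums differed more between isolates than between siRNAs. LUM and PDGFRA went the other way, with log2 differences of 0.83 and 0.60 between siRNAs and -0.38 and 0.23 between isolates. With the isolate in the fit LUM was called up and PDGFRB, THY1 and FN1 down among the fibroblast markers. The 7 immune markers summed to between 0.374 and 0.658 CPM with LYZ and CD3E at 0 everywhere, and the 5 epithelial markers to between 0.516 and 0.715 CPM with KRT5 and KRT14 at 0. The 4 endothelial markers found summed to between 135 and 150.03 CPM, nearly all of it TEK, with CDH5 at 0. VWF, an endothelial marker, went from 1.36 and 0.923 CPM in the controls to 4.16 and 2.59 CPM after HMGB1 KD and was called up with the isolate in the fit. The part of these markers in the results below was not tested.

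HMGB1 KD libraries held more RNA of IL33, of its receptor gene IL1RL1 and of IL1A than the control library of the same isolate, in both isolates, and less RNA of CASP1. IL1B went in opposite directions in the isolates, IL1R1 and CASP4 were at most 1.55-fold higher, IL1RAP was slightly lower, and IL1RN was near 0 throughout. In bulk RNA, fewer cells expressing a gene and less RNA per cell cannot be told apart. With the siRNA group alone in the fit, edgeR's quasi-likelihood test called 0 of the 8 genes tested (adjusted p under 0.01 over all genes and a log2-fold change beyond 0.6), while 4 of the 8, IL33, IL1RL1, CASP1 and CASP4, had an unadjusted p under 0.05, as did 28.3% of all genes tested. Of all 15398 genes tested, 0.201% were called by this edgeR fit. DESeq2 on the same design called IL1RL1 up and CASP1 down, beside 728 up and 818 down of all genes. With the isolate added to the fit as a block, IL33, IL1RL1 and IL1A were called up and CASP1 down, where the background was 6.68% of all genes up and 7.84% down. IL1RL1 entered the tests through the HMGB1 KD libraries, since only 1 control reached the minimum of the filter on low counts. Its p-values and calls carry that selection. The blocked fit leaves 1 residual degree of freedom per gene and draws most of its error from the spread shared over genes, and 2 libraries per group cannot give an exact permutation p below 0.333. Nothing in the labels says that libraries of a group came from more than 1 culture per isolate, and p-values cover only the spread between these libraries.

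**Figure D1:**
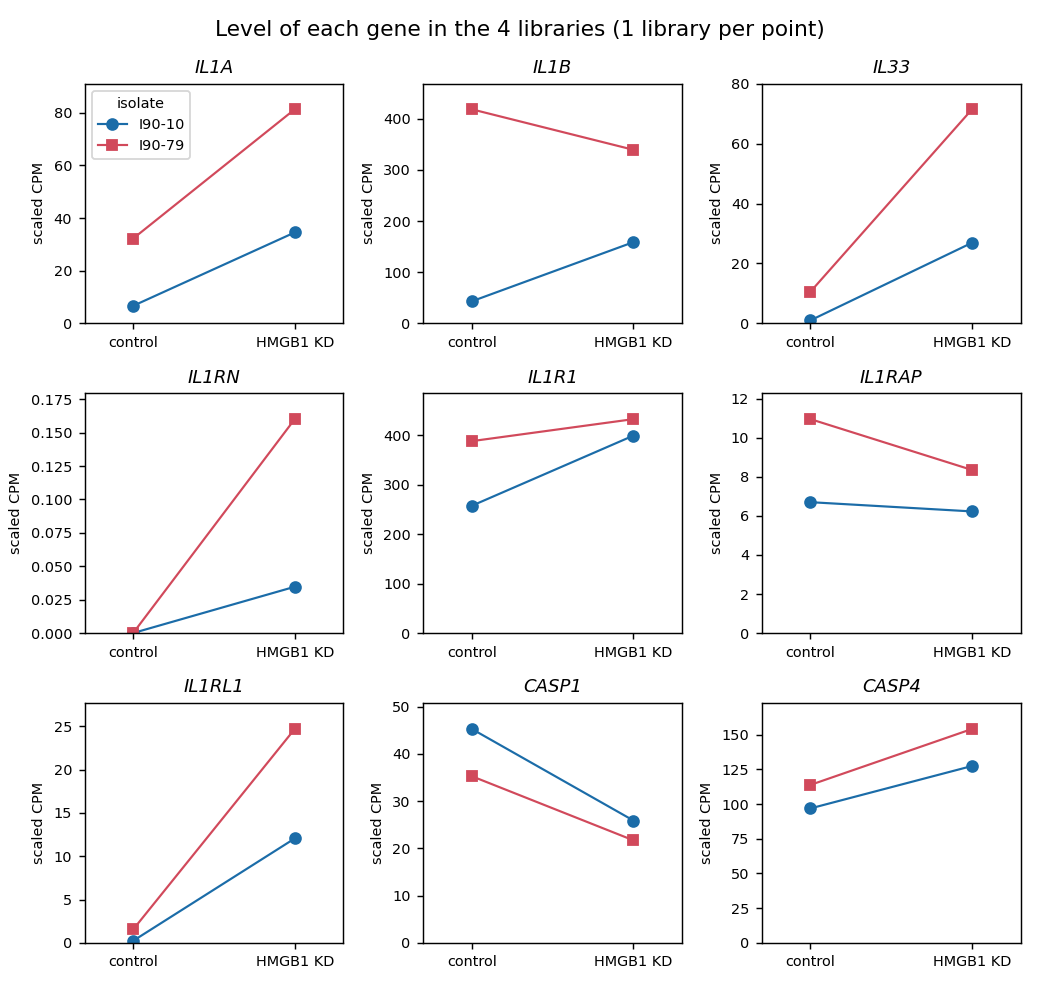
Level of the 9 genes in the 4 libraries in scaled CPM (vertical axes, each from 0), with control on the left and HMGB1 KD on the right of each panel, and a line joining the libraries of one isolate (circles I90-10, squares I90-79). IL1A, IL33 and IL1RL1 go up along both lines and CASP1 goes down along both, while the lines of IL1B go from 42.9 to 159 CPM in I90-10 and from 419 to 340 CPM in I90-79.

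Among the ligands, IL1A (ENSG00000115008; hg19, chromosome 2, 113531492 to 113542167, minus strand) lies next to IL1B (ENSG00000125538; 113587328 to 113594480, minus strand). IL1A had 194 counts (6.60 CPM) in the I90-10 control and 1187 (32.2 CPM) in the I90-79 control, against 997 (34.5 CPM) and 2541 (81.4 CPM) in the HMGB1 KD libraries of the same isolates. The I90-10 control was the lowest and the I90-79 HMGB1 KD library the highest, and both HMGB1 KD libraries lay above both controls, although the I90-10 HMGB1 KD library lay only slightly above the I90-79 control. Within isolates IL1A was 5.19-fold higher in I90-10 and 2.52-fold higher in I90-79. The group-only fit gave a log2-fold change of 1.57 (SE 0.78, adjusted p = 0.253, edgeR), whereas the block on the isolate gave 1.80 (SE 0.22, adjusted p = 6.51e-04, edgeR), a 3.48-fold increase. Where a library is left out, the lone library of its group is assumed to vary like the pair of the other group. Leaving out the I90-79 control in this way raised the group-only value to 3.13 and made it a call, and leaving out the I90-79 HMGB1 KD library lowered it to 0.83.

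IL1B, the secreted ligand that needs cleavage, was the most abundant cytokine among the members. It had 1259 counts (42.9 CPM) in the I90-10 control and 15432 counts (419 CPM) in the I90-79 control, a 9.76-fold difference between libraries given the same control siRNA. After HMGB1 KD it had 4582 counts (159 CPM) in I90-10 and 10603 counts (340 CPM) in I90-79. Both HMGB1 KD values fell between the controls, so the groups overlapped. IL1B was 3.70-fold higher with HMGB1 KD in I90-10 and at 0.811 of the control in I90-79, a log2-fold change of 1.89 and -0.30. The fitted values were 0.11 (SE 0.98, adjusted p = 0.955) in the group-only edgeR fit and 0.77 (SE 0.42, adjusted p = 0.202) with the block, and neither passed. Without the I90-10 control the group-only value was -0.75, without the I90-79 HMGB1 KD library -0.54, and without the I90-79 control 2.54, none of them called. Its direction thus changed with the library left out.

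IL33, a nuclear cytokine and alarmin of barrier tissues and stromal cells (ENSG00000137033; hg19, chromosome 9, 6215805 to 6257983, plus strand), showed the largest change of the cytokines. It had 28 counts (0.953 CPM) in the I90-10 control and 388 (10.5 CPM) in the I90-79 control, and 777 (26.9 CPM) and 2234 (71.5 CPM) in the HMGB1 KD libraries of I90-10 and I90-79. The groups did not overlap, and the lower HMGB1 KD library stood above the higher control. The change within isolates was 26.5-fold in I90-10 and 6.76-fold in I90-79. The group-only log2-fold change was 3.08 (SE 1.04, adjusted p = 0.131, edgeR), and with the isolate as a block it was 3.40 (SE 0.35, adjusted p = 3.26e-04, edgeR), or 10.6-fold, which ranked IL33 at 42 among the 15398 genes by increase. Without the I90-79 control, when the control arm was the I90-10 library of 28 counts alone, the group-only value was 5.69 and called, and without the I90-79 HMGB1 KD library it was 2.22 and not called.

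IL1RN, the soluble antagonist that occupies IL1R1 without signalling (ENSG00000136689; hg19, chromosome 2, 113864791 to 113891593, plus strand), had 0 counts in both controls, 1 in the I90-10 and 5 in the I90-79 HMGB1 KD library. It did not pass the filter on low counts and was not tested. A count of 0 allows up to 3 counts, or 0.102 and 0.0814 CPM in the I90-10 and I90-79 controls, so a difference was not detectable at this depth. The other ligands and binding proteins of the family were just as scarce, since IL18, IL36A, IL36B, IL36G, IL36RN, IL37 and IL1F10 had between 0 and 5 counts in each library. The exception was IL18BP, the soluble inhibitor of IL-18, with between 99 and 126 counts and a log2-fold change of 0.34 (SE 0.22, adjusted p = 0.367, edgeR). Thus 1 of 8 genes of that list was tested and 0 were called with or without the block, and its unadjusted p was 0.182.

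Among the receptors, IL1RL1 (ENSG00000115602; hg19, chromosome 2, 102927962 to 102968497, plus strand) encodes ST2, both as the transmembrane IL-33 receptor and as a shorter soluble decoy. Gene-level counts add the forms together. It had 7 counts (0.238 CPM) in the I90-10 control and 57 (1.55 CPM) in the I90-79 control, against 348 (12.1 CPM) and 771 (24.7 CPM) after HMGB1 KD. The lower HMGB1 KD value was far above the higher control value. IL1RL1 was 40.2-fold higher in I90-10, where the control rests on 7 counts, and 15.4-fold higher in I90-79. The log2-fold change was 4.31 in the group-only fit (SE 0.78, adjusted p = 0.0382, edgeR), short of the 0.01 threshold, and 4.43 with the block (SE 0.30, adjusted p = 6.44e-05, edgeR), the increase of rank 12 among all genes. IL1RL1 reached the minimum of the filter on low counts (0.328 CPM before scaling) in both HMGB1 KD libraries but only in the I90-79 control. Leaving out either control made it a call in the group-only fit, with 3.57 without I90-10 and 6.25 without I90-79, but the spread then came from the HMGB1 KD pair alone. Its exons overlap those of IL18R1 over 95 bases, 1.65% of its exonic length, on the same strand.

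IL1R1, the signalling receptor for both IL-1 alpha and beta (ENSG00000115594; chromosome 2, 102681004 to 102796334, plus strand), was the most abundant receptor. It had 7566 and 14312 counts (258 and 388 CPM) in the I90-10 and I90-79 controls and 11538 and 13520 counts (399.5 and 433 CPM) after HMGB1 KD. Both HMGB1 KD libraries were above both controls, but the I90-79 control and the I90-10 HMGB1 KD library were close to each other. The change was 1.55-fold in I90-10 and 1.11-fold in I90-79, and neither the group-only fit (log2-fold change 0.37, SE 0.22, adjusted p = 0.330, edgeR) nor the block (0.39, SE 0.13, adjusted p = 0.0456, edgeR) called it. Its exons overlap the antisense gene IL1R1-AS1 over 11 bases, and IL1R1-AS1 had 0 counts in every library.

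IL1RAP, the accessory chain shared by IL1R1 and ST2 (ENSG00000196083; chromosome 3, 190231840 to 190375843, plus strand), had 197 and 404 counts (6.71 and 11.0 CPM) in the I90-10 and I90-79 controls and 180 and 261 counts (6.23 and 8.36 CPM) after HMGB1 KD. It was at 0.930 of the control in I90-10 and 0.764 in I90-79, and the groups overlapped. The log2-fold change was -0.28 (SE 0.31, adjusted p = 0.594, edgeR) and -0.26 with the block (SE 0.17, adjusted p = 0.275, edgeR), neither called, and it turned to 0.12 without the I90-79 control.

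IL1R1, IL1RL1 and 4 genes of the list of other family receptors (IL1R2, IL1RL2, IL18R1 and IL18RAP) lie within one stretch of chromosome 2, from 102608306 to 103069025 in hg19. IL1R2, a decoy receptor without a signalling domain, had 1 count in each control and 11 in each HMGB1 KD library. Its controls were under the limit of 3 counts and it passed the filter on low counts through the HMGB1 KD libraries alone, so no fold or test is given. IL18R1, the ligand-binding IL-18 receptor chain and the immediate neighbour of IL1RL1, had 128 and 435 counts in the I90-10 and I90-79 controls and 266 and 771 after HMGB1 KD. That change was near 2.1-fold in each isolate (log2 1.07 and 1.06), much less than for IL1RL1, and the groups overlapped. It was called with the block (1.07, SE 0.14, adjusted p = 0.00102, edgeR, against 1.06, SE 0.63, adjusted p = 0.323 with the group alone). IL1RAPL2, an IL1RAP-like receptor gene of the X chromosome, had 10 and 4 counts in the controls and 33 and 7 after HMGB1 KD, and was not called. Of the 7 other receptors 6 were tested. The fit with the block called 1 of them up and 0 down, beside 6.68% and 7.84% of all genes. Leaving IL1R2 aside, 4 of 5 had a positive value, with a median log2-fold change of 0.98 beside -0.01 over all genes.

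The caspases went in opposite directions. CASP1, which cuts IL-1 beta into its active form (ENSG00000137752; hg19, chromosome 11, 104896170 to 104972158, minus strand), had 1330 and 1300 counts (45.3 and 35.3 CPM) in the I90-10 and I90-79 controls and 748 and 678 counts (25.9 and 21.7 CPM) after HMGB1 KD. The groups did not overlap, although the controls differed from each other by about as much as the lower control differed from the higher HMGB1 KD library. It was at 0.573 of the control in I90-10 and 0.616 in I90-79. The group-only log2-fold change was -0.76 (SE 0.18, adjusted p = 0.0629, edgeR) and with the block it was -0.75 (SE 0.11, adjusted p = 0.00133, edgeR), a 1.69-fold decrease. The value ranged from -0.93 without the I90-79 control to -0.57 without the I90-10 control. CASP1 shares 24 exonic bases with CARD16 and 24 with CARD17P, which had 0 counts in every library. Over its annotated transcripts it shares 4.48% of its 50-base words with CARD16, so a small part of its reads cannot be assigned with certainty.

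CASP4, which senses cytosolic lipopolysaccharide and cuts gasdermin D (ENSG00000196954; chromosome 11, 104813593 to 104840163, minus strand), lies close to CASP1 and had 2847 and 4196 counts (96.9 and 114 CPM) in the I90-10 and I90-79 controls and 3682 and 4815 counts (127 and 154 CPM) after HMGB1 KD. Its increase was 1.32-fold in I90-10 and 1.35-fold in I90-79, the most even of the members. The log2-fold change was 0.42 in both fits, with an SE of 0.15 and adjusted p = 0.149 for the group alone and an SE of 0.09 and adjusted p = 0.0107 with the block (edgeR), just short of the threshold of 0.01 and under the fold threshold. CASP5, which lies between them, had at most 6 counts in a library.

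**Figure D2:**
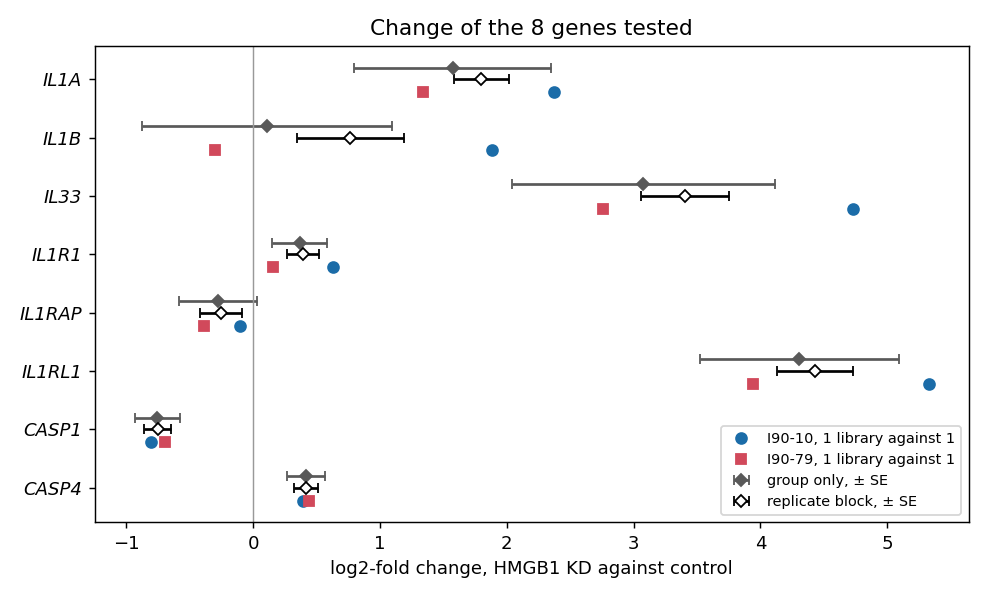
Log2-fold change of HMGB1 KD against control for the 8 genes tested (horizontal axis), from the group-only edgeR fit (filled diamonds) and the fit with the isolate as a block (open diamonds), both ± SE, and within each isolate from 1 library against 1 (circles I90-10, squares I90-79). The SE of each of the 8 genes shrinks under the block. The I90-10 point lies to the right of the I90-79 point except for CASP1 and CASP4.

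Both HMGB1 KD libraries were above both controls for 5 of the 8 genes tested, IL1A, IL33, IL1R1, IL1RL1 and CASP4, and below them for CASP1, where 29.8% and 30.2% of all genes tested did so in those directions. Of these, IL1RL1 had passed the filter on low counts through its HMGB1 KD libraries. The median group-only log2-fold change of the 8 genes was 0.39 with 6 of the 8 positive, and 0.37 with 5 of 7 positive leaving IL1RL1 aside. Over all genes tested the median was -0.01, with 7642 of 15398 positive.

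The isolates were compared because each siRNA was given to both. IL1A, IL1B, IL33 and IL1RL1 had more RNA in I90-79 than in I90-10 under either siRNA. Ratios of I90-79 to I90-10 were taken from log2 CPM with a prior count of 2, which makes ratios of low counts smaller. In the controls they were 10.4 for IL33, 9.76 for IL1B, 5.34 for IL1RL1 and 4.84 for IL1A. In the HMGB1 KD libraries the ratios were 2.66 for IL33, 2.14 for IL1B, 2.04 for IL1RL1 and 2.35 for IL1A. The gap between isolates was therefore smaller after HMGB1 KD for each of these 4 genes, and the increase with HMGB1 KD was larger in I90-10. With 1 library for each isolate and siRNA this difference between isolates cannot be tested.

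With the siRNA as a covariate, IL1A was called higher in I90-79 (log2 difference 1.70, SE 0.22, adjusted p = 0.00582, edgeR), where 0.442% of all genes were called higher and 1.23% lower in I90-79. IL1B had the greatest log2 difference between isolates of the members, 2.18 (SE 0.43), but with adjusted p = 0.0264 (edgeR) was not called, nor were IL33 at 2.01 (SE 0.34, adjusted p = 0.0150, edgeR) and IL1RL1 at 1.33 (SE 0.28, adjusted p = 0.0309, edgeR). For IL1R1, IL1RAP, CASP1 and CASP4 the differences lay between -0.31 and 0.57 and were not called. The call of IL1A was lost with DESeq2 (1.76, adjusted p = 0.0110). In the edgeR fit of the isolates 6 of the 10 fibroblast markers, among them COL1A2 (-0.96), THY1 (-1.19) and FN1 (-0.89), were called lower in I90-79. Their part in the result was not tested, and isolate and culture cannot be told apart.

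**Figure D3:**
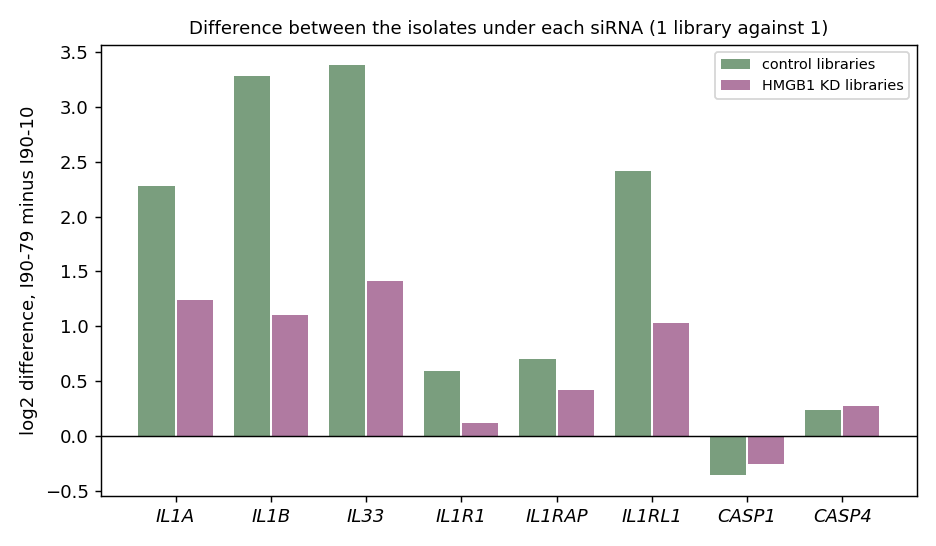
Log2 difference of scaled CPM between the isolates, I90-79 minus I90-10 (vertical axis), in the controls (green bars) and in the HMGB1 KD libraries (purple bars), each from 1 library against 1. The bars of IL1A, IL1B, IL33 and IL1RL1 are all above 1 and shorter after HMGB1 KD, whereas those of CASP1 and CASP4 are close to 0.

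Levels can be compared between genes per length, as RPKM (scaled CPM per kilobase of merged exons). In the I90-10 control IL1R1 was highest at 36.4 RPKM. It was followed by IL1B at 13.8, CASP4 at 13.4, CASP1 at 12.2 and IL1A at 3.11 RPKM, with IL1RAP, IL33 and IL1RL1 under 1. In the I90-79 control IL1B came first at 135 RPKM, ahead of IL1R1 at 54.8, CASP4 at 15.7, IL1A at 15.2, CASP1 at 9.48 and IL33 at 3.26 RPKM. Over both controls the means ± SD (n = 2) ran from 74.6 ± 85.9 RPKM for IL1B over 45.6 ± 13.1 for IL1R1, 14.5 ± 1.65 for CASP4, 10.8 ± 1.90 for CASP1, 9.14 ± 8.53 for IL1A and 1.78 ± 2.10 for IL33 to 0.921 ± 0.314 for IL1RAP and 0.155 ± 0.161 for IL1RL1. Neighbours in that order overlapped between the libraries for IL1B and IL1R1, for CASP1 and IL1A, for IL1A and IL33 and for IL33 and IL1RAP.

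After HMGB1 KD the RPKM levels in I90-10 and I90-79 were 51.2 and 109.7 for IL1B, 56.4 and 61.1 for IL1R1, 16.3 and 38.3 for IL1A, 17.6 and 21.2 for CASP4, and 8.32 and 22.1 for IL33. CASP1 had 6.96 and 5.83 RPKM, IL1RL1 2.10 and 4.30, IL1RAP 0.650 and 0.871, and IL1RN 0.0106 and 0.0492. IL33, which stood below CASP1 in both controls, stood above it in both HMGB1 KD libraries, and IL1RL1 moved from below to above IL1RAP. After HMGB1 KD the values of IL1B and IL1R1 overlapped, as did those of IL1A, CASP4 and IL33. IL1R1 exceeded its accessory chain IL1RAP in every library.

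The sequences upstream of the start sites are shown for the genes called up and, beside them, for IL1B, because the called genes moved together while IL1B did not. They are the 250 bases before a transcript start in RefSeq (GRCh38.p14, a later build than that of the counts), which held 16 starts for 8 of the 9 members. Of genes with several starts the most upstream is given, and for IL1RL1 both. Capitals mark matches on either strand to an AP-1 motif (TGANTCA, which reads alike on both strands) or a TATA box (TATAAA). The windows are IL1A chr2:112784494-112784743 minus strand, IL1B chr2:112836780-112837029 minus strand, IL33 chr9:6214899-6215148 plus strand, and IL1RL1 chr2:102311313-102311562 and chr2:102337007-102337256, both plus strand.
IL1A: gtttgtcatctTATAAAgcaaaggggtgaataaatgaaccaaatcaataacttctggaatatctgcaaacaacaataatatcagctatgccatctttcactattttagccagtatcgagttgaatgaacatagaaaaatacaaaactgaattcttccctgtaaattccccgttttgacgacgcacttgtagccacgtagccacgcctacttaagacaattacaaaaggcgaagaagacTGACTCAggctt
IL1B: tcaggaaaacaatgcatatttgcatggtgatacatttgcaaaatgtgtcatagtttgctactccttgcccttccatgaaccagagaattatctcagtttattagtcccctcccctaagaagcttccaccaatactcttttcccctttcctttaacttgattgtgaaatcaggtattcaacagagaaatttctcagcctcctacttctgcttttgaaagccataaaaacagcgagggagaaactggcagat
IL33: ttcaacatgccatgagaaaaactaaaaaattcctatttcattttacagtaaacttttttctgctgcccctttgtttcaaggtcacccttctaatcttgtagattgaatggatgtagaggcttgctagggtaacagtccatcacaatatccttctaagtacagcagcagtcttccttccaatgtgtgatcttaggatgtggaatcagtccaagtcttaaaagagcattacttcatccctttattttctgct
IL1RL1 upstream start: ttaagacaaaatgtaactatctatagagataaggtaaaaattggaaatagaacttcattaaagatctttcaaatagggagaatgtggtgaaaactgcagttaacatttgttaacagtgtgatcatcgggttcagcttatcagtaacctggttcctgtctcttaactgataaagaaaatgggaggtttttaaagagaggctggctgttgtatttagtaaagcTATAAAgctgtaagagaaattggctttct
IL1RL1 downstream start: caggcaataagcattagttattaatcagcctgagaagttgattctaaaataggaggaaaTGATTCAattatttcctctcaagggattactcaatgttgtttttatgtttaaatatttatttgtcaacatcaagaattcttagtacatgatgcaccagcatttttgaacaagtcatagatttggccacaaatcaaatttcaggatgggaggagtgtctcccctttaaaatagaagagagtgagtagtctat

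The IL1A window held an AP-1 match at -12 to -6 from its start and a TATA match at -239 to -234. A second IL1A start nearby, not printed, had AP-1 matches at -105 to -99 and -55 to -49. IL1RL1 had a TATA match at -29 to -24 of the upstream start and an AP-1 match at -191 to -185 of the downstream start. The IL1B and IL33 windows held neither motif, and no window of the 8 genes held the NF-kappaB consensus that was searched. Members not called up had matches too. IL1RN had an AP-1 match at -223 to -217 of its most upstream start and TATA matches at another start. IL1R1 had TATA matches at -229 to -224 and at -124 to -119 of the same start. Over all 35116 RefSeq promoter windows of the same length, 6.57% held the AP-1 motif, 9.96% the NF-kappaB consensus and 10.7% the TATA motif. Counted by gene, with a match in any of its windows, the shares were 8.06%, 11.8% and 13.0%. Within the windows of the 8 genes, the motifs searched overlapped each other only where TATA matches on both strands shared bases upstream of IL1RN. A match is a description of letters, and which start was used cannot be read from gene counts.

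Downstream of the receptors, the 16 adaptors and kinases that carry the IL-1 signal showed small changes. With the block 0 were called up and 1 down, where 6.68% of all genes were called up and 7.84% down. The group-only edgeR fit called 0. In that fit 5 of the 16 had an unadjusted p under 0.05, a share close to the 28.3% of all genes. TAB2, which links TRAF6 to the kinase TAK1, had 121 and 114 CPM in the controls and 75.4 and 78.6 CPM after HMGB1 KD. It was called with the block (log2-fold change -0.61, SE 0.10, adjusted p = 0.00239, edgeR), against adjusted p = 0.0358 with the group alone. MAP3K7, the gene of TAK1 itself, had a similar value of -0.56 (SE 0.10, adjusted p = 0.00447 with the block, edgeR) but lay within the fold threshold. IRAK1, a kinase recruited by MYD88, was at 169 and 189 CPM in the controls and 242 and 237 CPM after HMGB1 KD, a log2-fold change of 0.42 that was not called. The median of the list was 0.08, with 10 of 16 positive.

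Of the 16 genes found for inflammasomes and ligand processing 11 were tested, with 0 called by the group-only edgeR fit (5 of the 11 had an unadjusted p under 0.05, beside 28.3% of all genes). With the block 4 were called down and 1 up, where 7.84% of all genes were called down and 6.68% up. CARD16, a caspase-recruitment protein next to CASP1 and derived from it, went from 19.0 and 17.1 CPM in the controls to 8.38 and 9.19 CPM (log2-fold change with the block -1.03, SE 0.14, adjusted p = 0.00134, edgeR), and it had 12.2% of its 50-base transcript words in common with CASP1. CARD8, an inflammasome sensor, went from 25.3 and 23.1 CPM to 14.1 and 12.9 CPM (-0.84, SE 0.12, adjusted p = 0.00144 with the block, edgeR). PYCARD, the adaptor ASC that bridges sensors and caspase-1, had 241 and 247 counts in the controls and 93 and 35 after HMGB1 KD, and NLRP1, another sensor, had 61.9 and 36.9 CPM in the controls and 33.6 and 28.2 CPM after HMGB1 KD. NEK7, a kinase that binds NLRP3, was the gene called up, from 41.0 and 45.8 CPM to 64.7 and 87.2 CPM (0.79, SE 0.11, adjusted p = 0.00122 with the block, edgeR). PYCARD and NLRP1 were named after their values were seen. NLRP3 itself, AIM2 and MEFV had at most 4 counts in a library, and the list's median log2-fold change was 0.04.

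The 23 genes of the list of IL-1-induced fibroblast genes, chosen with earlier results known, gave a median log2-fold change of 0.95 with 18 of 23 positive. Over all genes the median was -0.01, with 7642 of 15398 positive. CCL20 and CSF3 reached the minimum of the filter on low counts in both HMGB1 KD libraries but in only 1 control. Leaving these 2 genes aside, 16 of 21 were positive, with a median of 0.95. The group-only edgeR fit called 0 of the 23 genes. An unadjusted p under 0.05 was found for 7, a share close to the 28.3% of all genes. The fit with the block called 12 up, CCL20 among them, and 1 down, where 6.68% of all genes were called up and 7.84% down. All 23 had the same sign in both isolates, as did 78.3% of all genes tested. CXCL6, a neutrophil chemokine, had 7.86 and 13.0 CPM in the controls and 20.4 and 23.4 CPM after HMGB1 KD, and its value of 1.10 was called with the block (SE 0.16, adjusted p = 0.00150, edgeR). BDKRB1, the inducible bradykinin receptor, had 93.9 and 110.4 CPM in the controls and 147 and 134 CPM after HMGB1 KD and was not called. VCAM1, a leukocyte adhesion molecule, was the one called down, from 373 and 217 CPM to 146 and 88.1 CPM (-1.32, SE 0.09, adjusted p = 7.3e-05 with the block, edgeR).

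A few further genes of that list are given after their values were seen. MMP3, a stromelysin, had 3.92 and 61.8 CPM in the controls and 123 and 579 CPM after HMGB1 KD, the largest value of the list (3.94 with the block, SE 0.34). IL6, the cytokine most often used as a readout of IL-1, had 25.7 and 84.3 CPM in the controls and 22.7 and 27.4 CPM after HMGB1 KD, and its value of -0.93 with the block (SE 0.28, adjusted p = 0.0385, edgeR) was not called. CCL2 had 175 and 196 CPM in the controls and 162 and 55.6 CPM after HMGB1 KD, and was not called either. Members of the list thus did not share 1 direction. In this list 5 genes were called higher and 1 lower in I90-79 than in I90-10, where 0.442% of all genes were called higher and 1.23% lower.

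**Figure D4:**
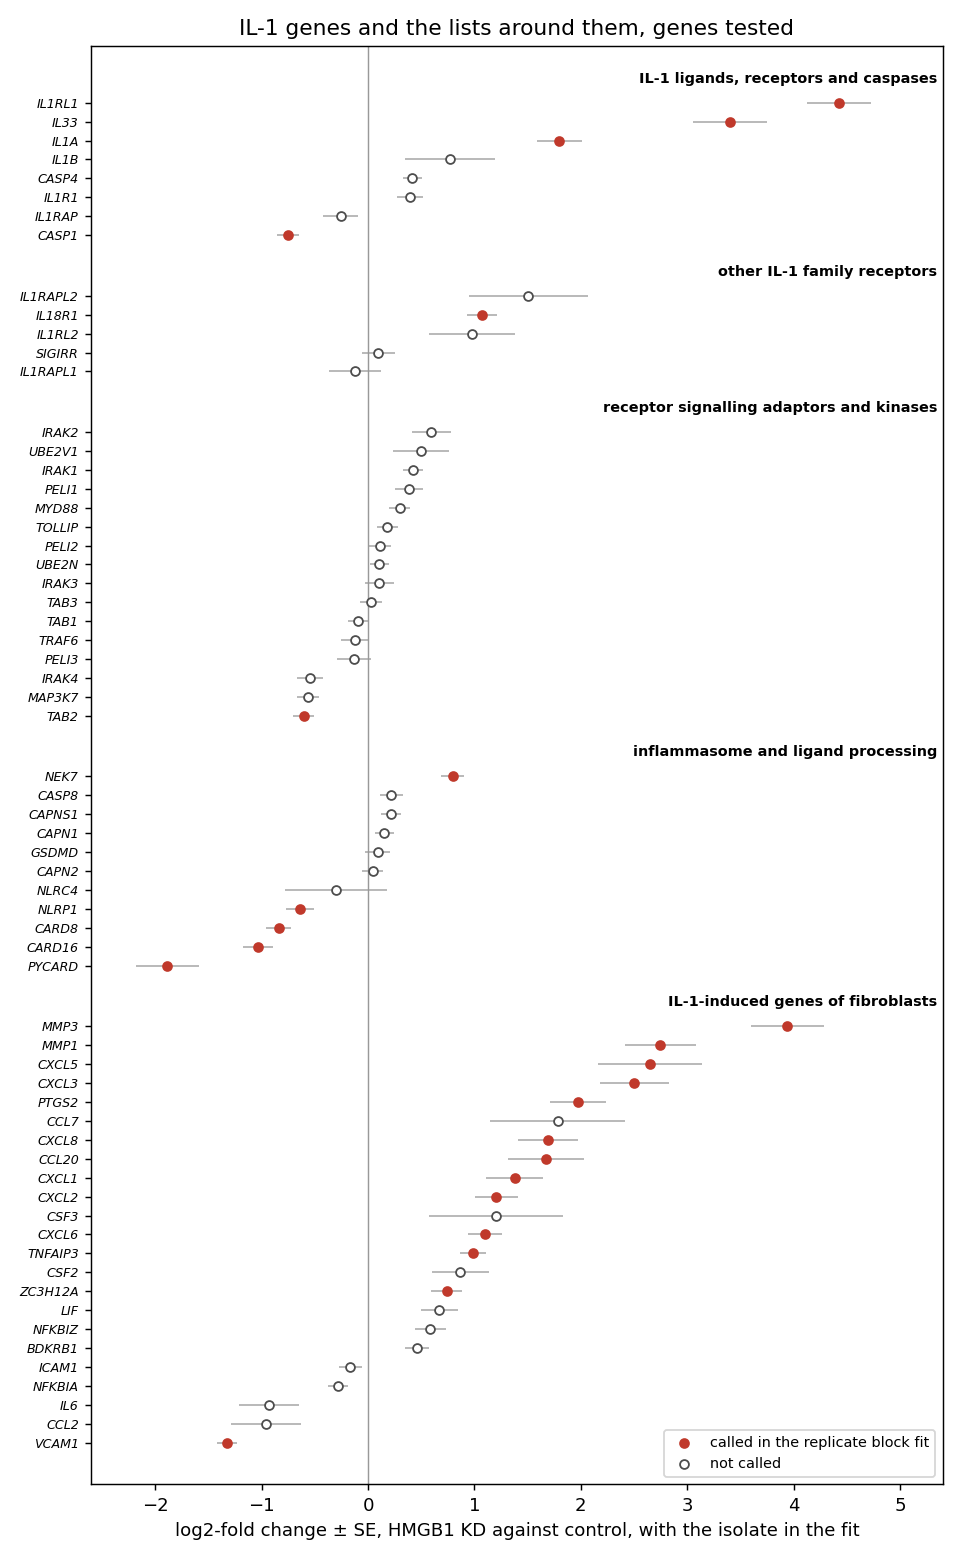
Log2-fold change of HMGB1 KD against control with the isolate in the fit (horizontal axis, ± SE) for each tested gene of the IL-1 genes and of the 4 lists around them, ordered by value within a list. Filled points were called (adjusted p under 0.01 and beyond 0.6), 3 up and 1 down among the IL-1 genes and 12 up and 1 down among the IL-1-induced genes. Of all genes tested 6.68% were called up and 7.84% down in this fit. IL18BP, the only tested gene of the list of other ligands, and IL1R2, with controls under 3 counts, are not drawn.

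The genes whose pattern over the 4 libraries was most like that of IL1A were ELOVL7, the unnamed gene ENSG00000236453, PTGS2, HTR7 and CXCL8, by the root-mean-square difference of centred log2 CPM among 13105 genes whose CPM averaged 1 or more over the libraries. The differences were 0.0639, 0.131, 0.135, 0.170 and 0.186 log2 units. PTGS2, the inducible cyclooxygenase, had 63.5 and 387 CPM in the I90-10 and I90-79 controls and 395 and 971 CPM after HMGB1 KD. CXCL8, the neutrophil chemokine interleukin-8, had 173 and 1161 CPM in the controls and 921 and 2299 CPM after HMGB1 KD. PTGS2 and CXCL8 stand also in the list of IL-1-induced genes.

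For IL1B the most similar genes were BCL2A1, IL11, PDK4, TFPI2 and MIR3142HG, with differences of 0.179, 0.238, 0.283, 0.285 and 0.301 log2 units. BCL2A1, an anti-apoptotic BCL-2 relative, had 0.579 and 5.78 CPM in the controls and 2.67 and 6.47 CPM after HMGB1 KD. IL11, a cytokine of the IL-6 family, had 6.74 and 47.8 CPM in the controls and 27.0 and 42.3 CPM after HMGB1 KD, and like IL1B it was above its control in I90-10 and below it in I90-79. These are descriptions over 4 libraries.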

How the data were processed

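Per the labels and the study's methods, TRIzol RNA was poly(A)-selected, made into TruSeq libraries and sequenced in pairs, and the authors aligned reads with STAR to hg19 and deposited featureCounts counts of uniquely aligned reads per gene. Versions, strand setting and counting of pairs are not given in the sources used here, so reads of overlapping antisense genes cannot be told apart. The deposited counts summed to 29869338, 35317010, 29861687 and 31086475. The study's own comparison used RUVs and DESeq2 and is not used here. The 5904 genes on patches or haplotypes and the 37 mitochondrial genes held 0 counts.

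Gene IDs were matched to symbols (55665 of 63677). Counts were filtered (filterByExpr, 15398 genes), scaled by TMM and tested with edgeR 4.0.16 (glmQLFit, glmQLFTest) in R 4.3.3 on the siRNA group, with Benjamini-Hochberg adjustment over all genes tested; a gene was called at adjusted p under 0.01 and a log2-fold change beyond 0.6, the study's thresholds. SEs were derived from the F statistic. Changes within isolates, and ratios between isolates under each siRNA, used log2 CPM with a prior count of 2. Replicate numbers pair the libraries because the labels give each number 1 isolate; differences between the isolates correlated at 0.464 between control and knockdown over genes, and the fit with this block is printed beside results. Alternatives were DESeq2 1.42.0, RUVs with 1 factor, other scalings and filters, and leaving out each library.

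The members and lists were chosen with earlier results of these data known. Named were all members, HMGB1, of each list the called genes plus the 3 with the smallest unadjusted p, the 5 genes most like IL1A and IL1B, and genes sharing exonic bases with members. CARD17, SOD2 and PECAM1 were not found by name. Read counts without molecular identifiers mean that the limit of 3 counts covers counting error only.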

Additional observations from a re-analysis of the deposited data

Results flagged for a closer look

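IL1B was set apart because its libraries moved in opposite directions in the isolates under the same contrast, with a log2-fold change of 1.89 in I90-10 and -0.30 in I90-79. Each value is 1 library against 1, so the difference between the isolates was not tested.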

How the results depend on the processing

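With the isolate as replicate block, 3 members were called up and 1 down (0 and 0 without it), 14 and 6 genes of the 5 lists, and 1028 and 1207 of all genes (10 and 21 without it). DESeq2 called 1 and 1 members, 3 and 5 list genes and 728 and 818 of all genes. RUVs with DESeq2 called 2 members up, 4 and 4 list genes and 763 and 829 of all genes, and gave IL1B -0.39. Without a filter on low counts 3 and 1 members, 15 and 7 list genes and 1118 and 1275 of all genes were called. DESeq2 with the replicate block, added after the data were seen, called 3 and 1 members, 11 and 6 list genes and 967 and 1091 of all genes. At adjusted p under 0.05 the numbers were 1 member up, 1 and 3 list genes and 575 and 668 of all genes. With at least 10 counts in every library, which removes IL1RL1, 6 of all genes were called up, and with bias-adjusted deviances 30 up and 68 down. Leaving out 1 library in turn called 0 to 3 members up, 0 to 9 and 0 to 1 list genes, and 0 to 305 and 0 to 337 of all genes. IL1B then ranged from -0.75 (without the I90-10 control; -0.54 without the I90-79 HMGB1 KD library) to 2.54 and IL1RAP from -0.59 to 0.12 (without the I90-79 control). The replicate block changed no call of another member than IL1A, IL33, IL1RL1 and CASP1. Between isolates, where 1 member and 68 genes were called higher and 189 lower in I90-79, the numbers were 4, 382 and 531 without a filter, 0, 166 and 284 with DESeq2, 0, 0 and 0 with the isolate alone, and 4, 277 and 424 at adjusted p under 0.05. In that comparison no library could be left out, since no residual degrees of freedom would remain. The cause of these differences was not tested. Depth limits IL1RN and IL1R2, and the I90-10 control value of IL1RL1 rests on 7 counts.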
